A study of Mus musculus with 18 samples.

Results

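Eomes and Tbx21 are the genes of a pair of T-box transcription factors, Eomesodermin and T-bet, and were taken by name as 2 of the 41388 genes listed in each library. RNA of natural killer (NK) cells was sequenced in 18 libraries, 3 for each of 6 groups, with spleens of C57BL/6 mice pooled before the sort. The KO cells came from mice with tamoxifen-inducible Cre recombinase in 1 copy of Ncr1 (Ncr1-iCreERT2 KI/WT), a Cre-dependent YFP reporter in Rosa26 (Rosa26YFPLSL) and floxed Eomes (Eomesfl/fl), treated with tamoxifen, and the WT label gives no further genotype. Each genotype gave 3 successive steps of maturation: stage II cells were CD27+CD11b-, stage III cells CD27+CD11b+ and stage IV cells CD27-CD11b+. Mice were 8 to 12 weeks old, were treated for 3 days and were used in 3 experiments. The labels leave it unclear whether WT mice also received tamoxifen, so tamoxifen and the deletion cannot be told apart. The Cre is driven by Ncr1, which encodes NKp46, so cells that use this gene, ILC1 included, can delete Eomes, and the labels name no sort on the reporter. The study asked which genes Eomes regulates at each stage.

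T-box factors bind DNA through a shared domain, and Eomes and T-bet are the family members best known in NK cells. T-bet drives late maturation and exit of NK cells into the blood, while Eomes is needed for the conventional NK lineage and for much of its receptor and cytotoxic equipment. Type 1 innate lymphoid cells (ILC1), close relatives of NK cells, use T-bet and carry little or no Eomes, so the balance of the factors is widely used to tell these cells apart.

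Total counts ran from 18684350 to 28365837 per library. Genes with a count numbered 14824 and 16536 in KO stage III replicates 1 and 3, 27912 in KO stage IV replicate 3 and 29859 in WT stage II replicate 1, against 17899 to 21556 in the other libraries. Replicate 1 of every WT stage stood apart from WT replicates 2 and 3 at both loci that are engineered in KO mice. Gt(ROSA)26Sor, the transcript of the reporter locus, was at 2.06 to 3.10 CPM (counts rescaled to a common library total) in the 9 KO libraries and at 2.21 to 2.89 CPM in the 3 WT replicate 1 libraries, against 20.5 to 37.4 CPM in the other 6 WT libraries. Ncr1, the locus of the Cre, was at 1402 to 2353 CPM in KO and 2111 to 2376 CPM in WT replicate 1, against 3600 to 4076 CPM in WT replicates 2 and 3. Xist, transcribed in female cells, was at 5.66 to 36.1 CPM in KO and 35.5 to 45.2 CPM in WT replicate 1, and at 0.636 CPM or less in WT replicates 2 and 3. The Y-linked genes Ddx3y, Eif2s3y, Kdm5d and Uty were present in every library, with Ddx3y at 67.8 to 206 CPM in KO and 95.1 to 108 CPM in WT replicate 1, and at 171 to 214 CPM in WT replicates 2 and 3. The KO and WT replicate 1 libraries thus held RNA of male and of female cells. The labels give all WT libraries 1 genotype, and the mix of sexes in a pool and the state of both loci cannot be told apart. The KO against WT results of Eomes and Tbx21 are therefore also given against each kind of WT library.

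Eomes (ENSMUSG00000032446) lies on chromosome 9 from 118478212 to 118486132 on the plus strand of GRCm38, with 6 exon blocks and a listed length of 4155 bases. Tbx21 (ENSMUSG00000001444) lies on chromosome 11 from 97098071 to 97115331 on the minus strand, with 6 exon blocks and 2488 bases. An antisense gene, Gm33460 (118485559 to 118489099, minus strand), overlaps the end of Eomes in the GENCODE annotation. The sources used here do not say whether reads were counted by strand, so reads of Gm33460 may be among those of Eomes.

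Eomes RNA was lower in KO than in WT cells at every stage, but it was not lost. In stage II, Eomes was at 55.2, 74.3 and 59.7 CPM in KO and at 191, 210 and 213 CPM in WT replicates 1, 2 and 3. The KO mean was 30.8% of the WT mean, and every KO library lay below every WT library. In stage III it was at 160, 155 and 135 CPM in KO and at 287, 250 and 277 CPM in WT, or 55.3%, again with no overlap. In stage IV it was at 121, 109 and 89.8 CPM in KO and at 253, 237 and 275 CPM in WT, or 41.8%, and the groups did not overlap. The counts cover the whole gene and the floxed exons are not named in the sources used here, so these shares do not count cells that kept a working allele. In sorted pools, fewer cells with the transcript and less transcript per cell cannot be told apart.

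The fitted log2 fold change of Eomes, KO over WT, was -1.70 ± 0.15 in stage II (SE, n = 3 per genotype), or 3.26-fold lower, with an adjusted p of 1.15e-05 in edgeR's quasi-likelihood test. It was -0.69 ± 0.15 in stage III (1.61-fold lower, adjusted p = 0.0143) and -1.28 ± 0.15 in stage IV (2.43-fold lower, adjusted p = 0.000274). Of 14156 genes tested, 1.46% were called at an adjusted p under 0.05 in stage II, 7.9% in stage III and 0.509% in stage IV. Over the mean of the stages the change was -1.22 ± 0.09 (adjusted p = 1.22e-07), where 5.45% of genes were called. This mean treats libraries of the same number in different stages as independent. The stage II fall was larger than the stage III fall by 1.02 ± 0.21 on the log2 scale, but this difference missed the threshold after adjustment (adjusted p = 0.0846), where 0.0494% of genes were called. DESeq2 gave this difference an adjusted p of 0.000778. The falls in stages IV and II differed by 0.42 ± 0.21 (95% interval -0.01 to 0.86, adjusted p = 0.772), and those in stages IV and III by -0.60 ± 0.21 (interval -1.03 to -0.16, adjusted p = 0.474). The share of genes called was 0.212% in the IV against II and 0.0283% in the IV against III difference.

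The fall of Eomes had the same direction against each kind of WT library. Without replicate 1 of every WT stage the log2 fold changes were -1.81, -0.68 and -1.31 in stages II, III and IV (adjusted p = 8.1e-05, 0.059 and 0.00186). With replicate 1 as the sole WT library of each stage they were -1.37, -0.72 and -1.23, none of which passed (adjusted p = 0.173, 0.867 and 0.456). The mean over the stages was -1.11 ± 0.14 in that fit and passed (adjusted p = 0.00686). That fit assumes that a lone WT library varies like the KO groups, and its mean treats 3 WT libraries that share a replicate number as independent. The stage III call is the least firm of the 3: leaving out any 1 of the 3 WT stage III libraries, or KO stage III replicate 1, also ended it, and the adjusted p ran from 0.00945 to 0.0908 when each of the 18 libraries was left out in turn.

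Tbx21 RNA was not detectably changed by the deletion at any stage. In stage II, Tbx21 was at 182, 101 and 96.5 CPM in KO and at 144, 115 and 89.5 CPM in WT. KO replicate 1 was the highest of these 6 libraries and KO replicates 2 and 3 lay within the WT range. In stage III it was at 162, 162 and 114 CPM in KO and at 157, 137 and 126 CPM in WT, and in stage IV at 212, 240 and 285 CPM in KO and at 210, 210 and 169 CPM in WT. The groups overlapped in stages II and III. In stage IV the lowest KO library lay just above the highest WT library in CPM. With the library scaling of the fits it lay below, at 209 against 215.

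The fitted log2 fold change of Tbx21, KO over WT, was 0.12 ± 0.20 in stage II (95% interval -0.31 to 0.56, adjusted p = 0.984), 0.21 ± 0.20 in stage III (-0.22 to 0.65, adjusted p = 0.51) and 0.30 ± 0.20 in stage IV (-0.13 to 0.73, adjusted p = 1). Over the mean of the stages it was 0.21 ± 0.12 (-0.04 to 0.46, adjusted p = 0.315). This mean also treats the stages as independent. As a ratio of KO to WT, the lower bounds of these 4 intervals ran from 0.808 to 0.975 and the upper bounds from 1.38 to 1.66. Without KO stage II replicate 1 the stage II value was -0.20 (adjusted p = 0.797). With replicate 1 as the sole WT library the values were 0.04, 0.09 and 0.23 in stages II, III and IV. Without replicate 1 of every WT stage they were 0.24, 0.27 and 0.32.

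**Figure D1:**
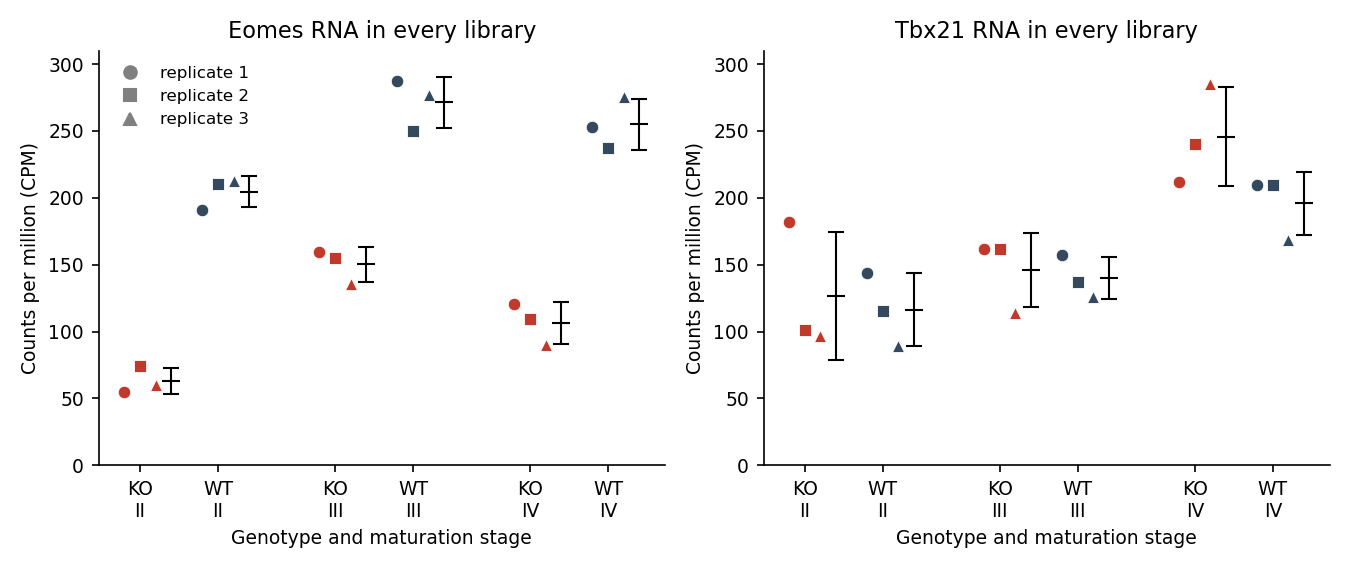
Eomes (left) and Tbx21 (right) RNA in each of the 18 libraries, in CPM, by genotype and stage; bars beside the points show the mean and SD of 3 libraries. Eomes in KO is below WT at each stage, with KO means of 63.1, 150 and 107 CPM and WT means of 205, 272 and 255 CPM in stages II, III and IV, while Tbx21 in KO and WT overlaps in stages II and III.

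By mean CPM, the order of the groups for Eomes was WT stage III (272), WT stage IV (255), WT stage II (205), KO stage III (150), KO stage IV (107) and KO stage II (63.1). On this scale WT stages III and IV overlapped, and no other neighbours in that order did. With the library scaling of the fits, KO stage III replicate 1 (181) lay above WT stage II replicate 1 (169), so those groups overlapped too. For Tbx21 the order was KO stage IV (246), WT stage IV (196), KO stage III (146), WT stage III (140), KO stage II (127) and WT stage II (116). In CPM, KO stage IV lay above WT stage IV without overlap, both lay above every stage III library, and the 4 groups of stages II and III each overlapped their neighbour in the order. With the library scaling of the fits, KO stage IV replicate 1 (209) lay below WT stage IV replicate 2 (215). On that scale KO stage III replicate 1 (183) lay above WT stage IV replicate 3 (172).

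The stages carried different amounts of each transcript. In KO cells Eomes was higher in stage III than in stage II by 1.50 ± 0.15 on the log2 scale (adjusted p = 8.64e-06), where 10.1% of genes were called. It was lower in KO stage IV than in KO stage III, at -0.68 ± 0.15 (adjusted p = 0.00513), where 17.7% were called, and higher in KO stage IV than in KO stage II by 0.82 ± 0.15 (adjusted p = 0.00077), where 14.9% were called. In WT cells the changes were 0.48 ± 0.15 for stage III over II (adjusted p = 0.105), -0.08 ± 0.15 for IV over III (adjusted p = 0.957) and 0.39 ± 0.15 for IV over II (adjusted p = 0.083), and none passed. The background shares were 2.97%, 3.17% and 15.1% in these WT comparisons. WT stages III and IV were each above every WT stage II library, and DESeq2 called the WT rise in stage III over stage II (adjusted p = 0.0332). The KO fall in stage IV against stage III was not called without KO stage III replicates 1 and 3 (-0.54, adjusted p = 0.163), nor with only those 2 groups in the fit (-0.68, adjusted p = 0.138).

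Tbx21 was higher in stage IV than in stage II in both genotypes. The change was 1.02 ± 0.21 in KO (adjusted p = 0.00206) and 0.84 ± 0.21 in WT (adjusted p = 0.00948), and the KO minus WT difference between these changes was 0.18 ± 0.29 (95% interval -0.43 to 0.79, adjusted p = 1). For stage IV over III the values were 0.58 ± 0.20 in KO (adjusted p = 0.0593; 0.60, adjusted p = 0.0297 with a replicate block, and 0.58, adjusted p = 0.0316 in DESeq2) and 0.49 ± 0.20 in WT (adjusted p = 0.309). For stage III over II they were 0.44 ± 0.20 in KO (adjusted p = 0.169) and 0.35 ± 0.20 in WT (adjusted p = 0.621). Without KO stage II replicate 1, the library with high Tbx21, the KO rise in stage III over II was 0.78 and was called (adjusted p = 0.0163), as was that of KO stage IV over III (0.57, adjusted p = 0.0213). The WT rise in stage IV over II missed the threshold without replicate 1 of every WT stage (0.94, adjusted p = 0.0515) and with replicate 1 as the sole WT library (0.81, adjusted p = 0.567).

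**Figure D2:**
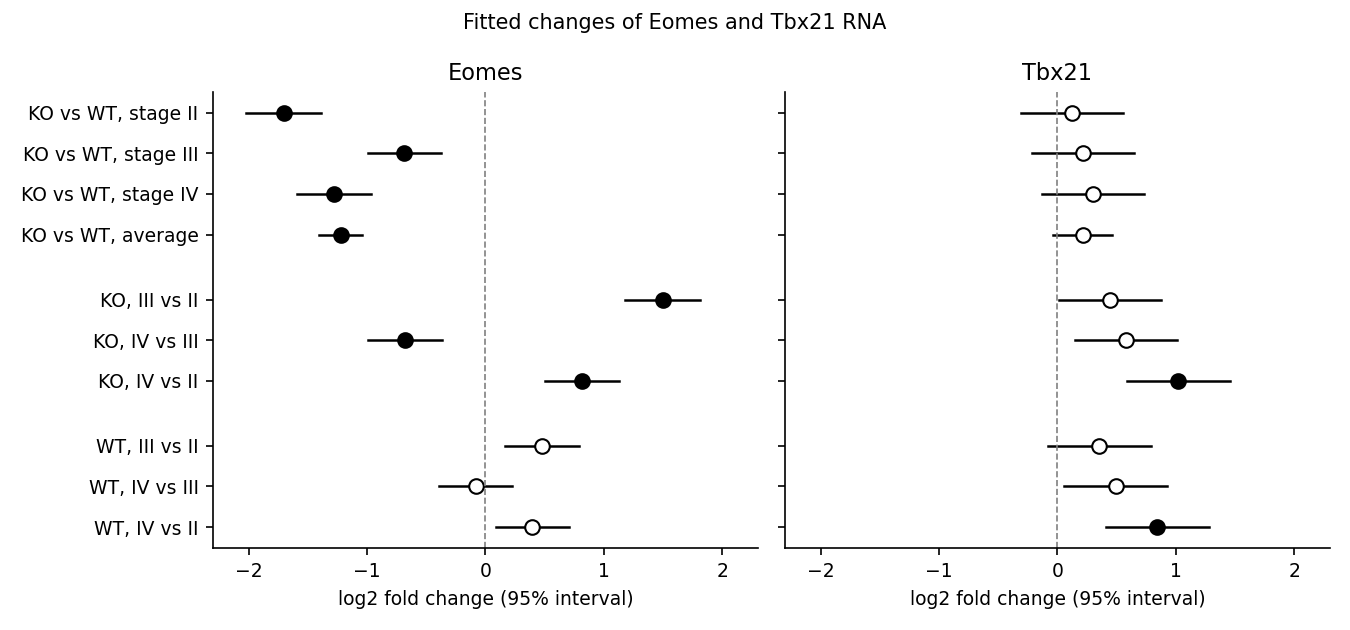
Fitted log2 fold changes of Eomes (left) and Tbx21 (right), the first-named group over the second, with 95% intervals from the edgeR fit of all 18 libraries; filled points have an adjusted p under 0.05. Each KO vs WT value of Eomes is filled and lies below 0 (-1.70, -0.69, -1.28 and -1.22), and each Tbx21 value for KO vs WT is open.

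Per kilobase of transcript, Eomes was the less abundant of the pair in all 9 KO libraries and the more abundant in 5 of 9 WT libraries. In RPKM (CPM per kilobase of listed length), Eomes averaged 15.2 ± 2.4 in KO stage II and 49.2 ± 2.8 in WT stage II (SD, n = 3 each), while Tbx21 averaged 50.9 ± 19.3 in KO and 46.7 ± 11.0 in WT. In stage III the Eomes level averaged 36.1 ± 3.1 RPKM in KO and 65.4 ± 4.6 in WT, and Tbx21 averaged 58.6 ± 11.1 in KO and 56.4 ± 6.4 in WT. In stage IV the Eomes level averaged 25.7 ± 3.8 RPKM in KO and 61.4 ± 4.6 in WT, and Tbx21 averaged 98.8 ± 14.9 in KO and 78.8 ± 9.5 in WT. As a share of their summed RPKM, Eomes was 15.4% to 41.6% over the KO libraries and 40.4% to 58.7% over the WT libraries.

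The log2 ratio of Eomes to Tbx21 per kilobase was -1.69 ± 0.68 in KO and 0.10 ± 0.42 in WT in stage II (SD, n = 3 each). It was -0.68 ± 0.17 in KO and 0.22 ± 0.15 in WT in stage III, and -1.94 ± 0.43 in KO and -0.36 ± 0.28 in WT in stage IV. KO lay below WT without overlap at each stage, with an exact two-sided permutation p of 0.1, the smallest that 3 against 3 can give. Over the stages together the KO minus WT difference averaged -1.43 and had an exact permutation p of 0.00025, the smallest that the 8000 relabellings within stages allow. That test treats the stages as independent. With libraries of the same number kept together over the stages, 3 sets against 3, the exact permutation p was 0.1, the smallest possible, and the KO sets lay at -1.59, -1.29 and -1.44 and the WT sets at -0.22, -0.10 and 0.29. Against replicate 1 as the sole WT library of each stage the difference was -1.21, and without those libraries it was -1.53. WT stage IV had the lowest ratio of the WT stages, and it overlapped WT stage II and KO stage III. The ratio uses the same libraries as the separate results of both genes.

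**Figure D3:**
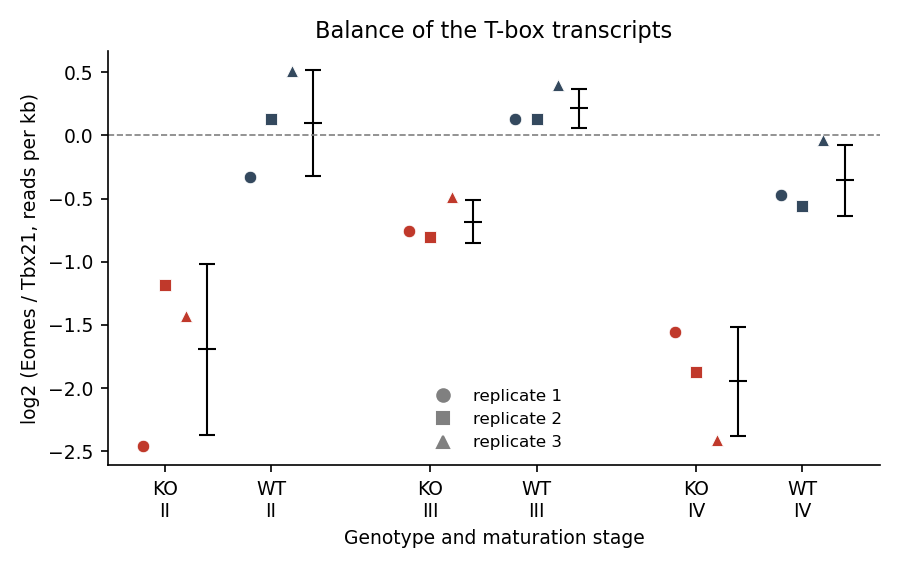
log2 ratio of Eomes to Tbx21 reads per kilobase in each library, by genotype and stage, with the mean and SD of 3 libraries beside the points; the dashed line marks equal levels. All 9 KO libraries lie below 0, from -2.46 to -0.49, and the WT libraries lie from -0.56 to 0.51.

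The other T-box genes were scarce. Of 15 others listed, Mga, Tbx6 and Tbx3 had enough counts to be tested. Mga, which encodes a large partner of MAX with a T-box domain, was at 2.52 to 5.32 RPKM in every library, and Tbx6 at 0.725 to 4.56 RPKM on 27 to 201 counts. Tbx3 reached 88 counts in WT stage II replicate 1 and 62 in KO stage IV replicate 3, the libraries with counts for the most genes, and no other T-box gene exceeded 34 counts. None of the 3 was called between KO and WT in edgeR, DESeq2 or voom at any stage; at an unadjusted p under 0.05, edgeR gave 2, 0 and 0 of them in stages II, III and IV. Tbx6 was higher in stage IV than in stage II of WT cells (0.98 ± 0.29, adjusted p = 0.0314) and in stage IV than in stage III of KO cells (1.05 ± 0.29, adjusted p = 0.0199).

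The sequences around the start of each gene are shown because Tbx21 RNA was measured where Eomes RNA had fallen, and a T-box factor binds DNA at short words. They are RefSeq promoters on GRCm38.p6, 250 bases before to 50 bases after the start, written 5′ to 3′ on the strand of the gene, for chr9:118477939-118478238 (plus strand) and chr11:97115282-97115581 (minus strand). Capitals mark AGGTG, the core of the T-box word, or its reverse complement CACCT.
Eomes: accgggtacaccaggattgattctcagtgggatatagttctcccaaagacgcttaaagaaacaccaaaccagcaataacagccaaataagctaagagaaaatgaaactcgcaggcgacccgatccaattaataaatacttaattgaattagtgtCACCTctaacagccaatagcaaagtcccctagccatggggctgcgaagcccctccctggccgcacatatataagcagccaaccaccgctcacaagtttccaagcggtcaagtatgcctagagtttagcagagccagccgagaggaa
Tbx21: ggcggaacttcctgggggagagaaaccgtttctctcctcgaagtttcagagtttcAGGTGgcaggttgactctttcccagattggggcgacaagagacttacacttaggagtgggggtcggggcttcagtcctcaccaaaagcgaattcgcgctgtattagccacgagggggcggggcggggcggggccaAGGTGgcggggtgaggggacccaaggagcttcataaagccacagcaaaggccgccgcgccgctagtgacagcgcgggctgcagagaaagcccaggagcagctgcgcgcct
AGGTG or its complement began at position -96 in the Eomes window, and at -195 and -60 in the Tbx21 window, counted from the start. It is short: 51.9% of 32851 mouse promoters of the same length hold it, and a C before it makes it part of the E-box word CANNTG. The copy at -195 in the Tbx21 window follows a C and so reads CAGGTG, while the copy at -60 follows an A. The longer word GGTGTGA, searched on both strands and held by 3.98% of promoters, was in neither window, nor were TGTGGT (RUNX, 16.8%) and TATAAA (13.6%). The Eomes window does hold TATATAA, which a search for the exact word TATAAA does not match. The Tbx21 window had 21 CpG dinucleotides and 62% G or C, the Eomes window 10 CpG and 47.3%, and the median promoter 7 CpG and 52.7%.

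Genes known to act upstream of the factors, or together with them, were also compared between genotypes. Of 25 tested regulators of Eomes or Tbx21, 0 were called in stage II, 1 was higher and 0 were lower in stage III, and 0 were called in stage IV, with a median log2 change of 0.06, 0.00 and 0.05 (all tested genes: -0.01, 0.02 and 0.02). These numbers are near the shares of 1.46%, 7.9% and 0.509% called over all genes. At an unadjusted p under 0.05 edgeR gave 3, 6 and 1 of them, and DESeq2 called 0, 5 and 1 after adjustment. The 1 was Tcf7, which encodes TCF-1, a factor of early lymphoid and immature NK cells, at 0.94 ± 0.18 in stage III (adjusted p = 0.0081). This call was lost without replicate 1 of every WT stage (0.89, adjusted p = 0.0514) and without KO stage III replicates 1 and 3. Of 12 tested partners of T-box factors, 0 were called at any stage by edgeR, which gave 1, 2 and 0 at an unadjusted p under 0.05 in stages II, III and IV. DESeq2 called 1, 2 and 0 of them, and 12 genes are too few to set against these shares. Zeb2, a repressor that acts with T-bet in late NK maturation and was picked after its values were seen, was higher in stage IV than in stage II by 3.83 ± 0.28 in KO (adjusted p = 4.71e-08) and by 2.68 ± 0.27 in WT (adjusted p = 2.39e-06).

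Of 18 tested genes associated with T-bet in NK cells, 0 were higher and 4 lower in KO than in WT in stage II, 1 higher and 5 lower in stage III, and 0 higher and 1 lower in stage IV. Over all tested genes, 0.996%, 2.75% and 0.268% were called lower in these stages. The list's median log2 changes were -0.47, -0.31 and -0.05, and DESeq2 called 6, 9 and 2 of its genes. S1pr5, the sphingosine receptor used to leave lymphoid tissue, changed by -1.44 ± 0.14 in stage II (adjusted p = 2.1e-05) and -0.56 ± 0.13 in stage III (adjusted p = 0.0246), and was at 0.28 ± 0.13 in stage IV (adjusted p = 0.884). The difference between its changes in stages IV and II was 1.72 ± 0.19 (adjusted p = 0.00117). Prf1, which encodes perforin, changed by -0.92 ± 0.19 in stage II (adjusted p = 0.0181) and -1.29 ± 0.19 in stage III (adjusted p = 0.00122). Klrg1, an inhibitory receptor of mature NK cells, and Prdm1, which encodes Blimp-1, were also lower in both stages. Klrg1 was at -1.28 ± 0.25 in stage II and -0.86 ± 0.25 in stage III (adjusted p = 0.0123 and 0.0449), and Prdm1 at -1.04 ± 0.20 in stage III (adjusted p = 0.0115 and 0.00635 in stages II and III). The other calls were Itgam, which encodes the CD11b used in the sort (-1.35, adjusted p = 0.0225), and Ccl5 (0.95) in stage III, and the chemokine receptor Cxcr3 in stage IV (-1.49 ± 0.27, adjusted p = 0.0183). With maturation, 12 of these 18 genes were higher and 2 lower in stage IV than in stage II, in KO and in WT alike. Of all tested genes 6.12% were higher and 8.76% lower in KO, and 5.26% and 9.82% in WT.

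Several of these calls were lost in fits with fewer libraries, which by itself makes a call harder to reach. Without replicate 1 of every WT stage, 0 higher and 3 lower were called in stage II, 0 and 2 in stage III and 0 and 2 in stage IV, and without KO stage III replicates 1 and 3, 0 and 1 in stage III. With replicate 1 as the sole WT library, 0 of the 18 were called at any stage, in a fit that called 2, 0 and 1 of all genes in stages II, III and IV, and 5, 7 and 1 of them had an unadjusted p under 0.05. The list medians there were -0.37, -0.12 and -0.06. Over the 30 other settings run for each value, single libraries left out included, the stage II call was kept in 29 for S1pr5, 21 for Prf1, 26 for Klrg1 and 23 for Prdm1. The stage III call was kept in 21 for S1pr5, 28 for Prf1, 9 for Klrg1, 25 for Prdm1, 21 for Itgam and 19 for Ccl5, and the stage IV call of Cxcr3 in 23.

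A list of 21 genes associated with Eomes in NK cells was chosen with results of these libraries known, so its direction is no separate evidence. Of these, 18 were lower in KO in stage II, 9 in stage III and 1 in stage IV, and 0 were higher at any stage, with medians of -1.26, -0.57 and -0.34 (DESeq2: 19, 11 and 1 lower, 0 higher). S1pr5, Prf1 and Itgam are also on the list of genes associated with T-bet, so their calls are counted in both lists. Over all tested genes 0.996%, 2.75% and 0.268% were lower and 0.466%, 5.16% and 0.24% higher. Without replicate 1 of every WT stage the numbers lower were 16, 5 and 0. Markers of other cells moved in the same libraries. The ILC1 list had 6 of 18 genes higher in stage II, 14 in stage III and 2 in stage IV (1 lower), against the same 0.466%, 5.16% and 0.24% of all genes higher, and none of its genes was at 0 in every library of a group. Its summed level was 3932 to 4211 CPM in KO and 2365 to 2673 CPM in WT in stage II. In stage III the sum was 820 to 1387 CPM in KO and 611 to 1278 CPM in WT. In stage IV the sum was 227 to 455 CPM in KO and 119 to 422 CPM in WT. Xcl1, which was not called, made up most of the stage III sum, at 602 to 1065 CPM in KO and 443 to 1123 CPM in WT. The B cell and plasma cell list had 1, 3 and 0 of 9 tested genes higher, with sums of 852 to 964 CPM in KO and 554 to 736 CPM in WT in stage II, and 162 to 378 CPM in KO and 92.1 to 113 CPM in WT in stage III. Its Pax5, a factor that defines B cells, was at 0 in every library of KO stage II, WT stage III and WT stage IV, as was the plasma cell marker Sdc1 in WT stage III. Of 13 tested T cell genes, Camk4 was higher and Cd3d lower in stage II (1.34 and -1.54, adjusted p = 0.0171 and 0.00121) and Cd3g higher in stage III (0.995, adjusted p = 0.0394), while the sums of the list overlapped in stages II and III. The T cell marker Cd5 was at 0 in every KO stage IV library. Of 10 myeloid and 8 erythroid and platelet genes tested, edgeR called 0 at any stage, with 1, 3 and 1 myeloid and 0, 3 and 0 erythroid genes at an unadjusted p under 0.05 in stages II, III and IV, and DESeq2 called 1, 1 and 0 myeloid and 0 erythroid genes. The myeloid sums were 259 to 349 CPM in KO and 374 to 395 CPM in WT in stage II, overlapped in stage III, and were 331 to 359 CPM in KO and 239 to 294 CPM in WT in stage IV. Itgax alone made up most of these sums. It was at 236 to 336 CPM in KO and 341 to 365 CPM in WT in stage II. In stage IV it was at 305 to 342 CPM in KO and 222 to 278 CPM in WT. Of that list, Ly6g was at 0 throughout KO stages II and III, and Clec9a throughout WT stages III and IV. The erythroid sums were 8.71 to 20.4 CPM in KO and 4.66 to 6.80 CPM in WT in stage III. The 12 NK markers summed to 21596 to 23879 CPM in KO and 27630 to 29896 CPM in WT in stage II, and overlapped in stages III and IV. Of these 12, 2, 1 and 0 were called lower in stages II, III and IV, and 0 higher. The 2 in stage II were Prf1 and Gzma, with Gzma at 790 to 958 CPM in KO and 3454 to 3635 CPM in WT. Ncr1, the locus of the Cre, is also on this list, so the sum does not measure a share of NK cells. The part of these shifts in the levels of Eomes and Tbx21 was not tested.

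Over the 18 libraries, the genes whose log2 CPM was most like that of Eomes, among 7958 genes with a mean of at least 10 CPM, were Prr5l (Pearson r = 0.928), Klra4 (0.910), Hhat (0.907), Cd2 (0.902) and Rasl12 (0.900). Prr5l encodes a protein that binds mTORC2, Klra4 a Ly49 receptor, Hhat an acyltransferase of Hedgehog proteins and Cd2 an adhesion receptor. Within the 9 KO libraries r was 0.850, 0.974, 0.950, 0.953 and 0.703 in that order, and within the 9 WT libraries 0.904, 0.774, 0.755, 0.928 and 0.908. Klra4 belongs to a family of near-identical genes, so its counts are uncertain. The most opposite were Slc39a6, a zinc importer (-0.894), Gramd1a (-0.881) and Frmd8 (-0.878). Gramd1a was not opposite within WT, where its r was 0.262, against -0.839 within KO.

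The genes most like Eomes were all called lower in KO in stage II by edgeR, and 2 of the 5 in stage III. Over all tested genes 0.996% and 2.75% were called lower in these stages. Prr5l changed by -1.09 ± 0.16 in stage II and -0.73 ± 0.16 in stage III (adjusted p = 0.000829 and 0.0147), and Rasl12 changed by -0.92 ± 0.13 and -0.71 ± 0.13 (adjusted p = 0.00059 and 0.0045). Klra4 and Hhat changed by -1.24 ± 0.19 and -1.76 ± 0.31 in stage II (adjusted p = 0.00121 and 0.00507) and were at -0.09 ± 0.18 and -0.72 ± 0.30 in stage III (adjusted p = 0.785 and 0.121). Cd2 changed by -0.68 ± 0.15 in stage II (adjusted p = 0.0277) and was at -0.14 ± 0.15 in stage III (adjusted p = 0.576). In stage IV none passed, and the 5 values ran from -0.67 for Hhat to -0.34 for Klra4, with adjusted p from 0.0542 for Rasl12 to 1 for Klra4. The stage III call was kept in 20 of 30 other settings for Prr5l and in 27 for Rasl12. The stage II call was kept in 29 for Prr5l, Klra4, Hhat and Rasl12, but in only 15 for Cd2. These genes share libraries and groups with Eomes, so the correlation and the change are not separate results.

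The genes most like Tbx21 were Fgl2 (r = 0.925), Ncln (0.905), Cyth1 (0.893), Lfng (0.889) and Rhoc (0.889), and the most opposite Hsdl2 (-0.924), Klrb1f (-0.900) and Lcp2 (-0.892). Lfng encodes a glycosyltransferase that modifies Notch, Rhoc a small GTPase and Lcp2 the adaptor SLP-76. Fgl2, which encodes a fibrinogen-like protein, was higher in stage IV than in stage II by 1.91 ± 0.28 in KO and by 2.33 ± 0.28 in WT (adjusted p = 8.68e-05 and 1.78e-05), and was at 0.50 ± 0.27, -0.01 ± 0.27 and 0.08 ± 0.27 for KO over WT in stages II, III and IV.

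**Figure D4:**
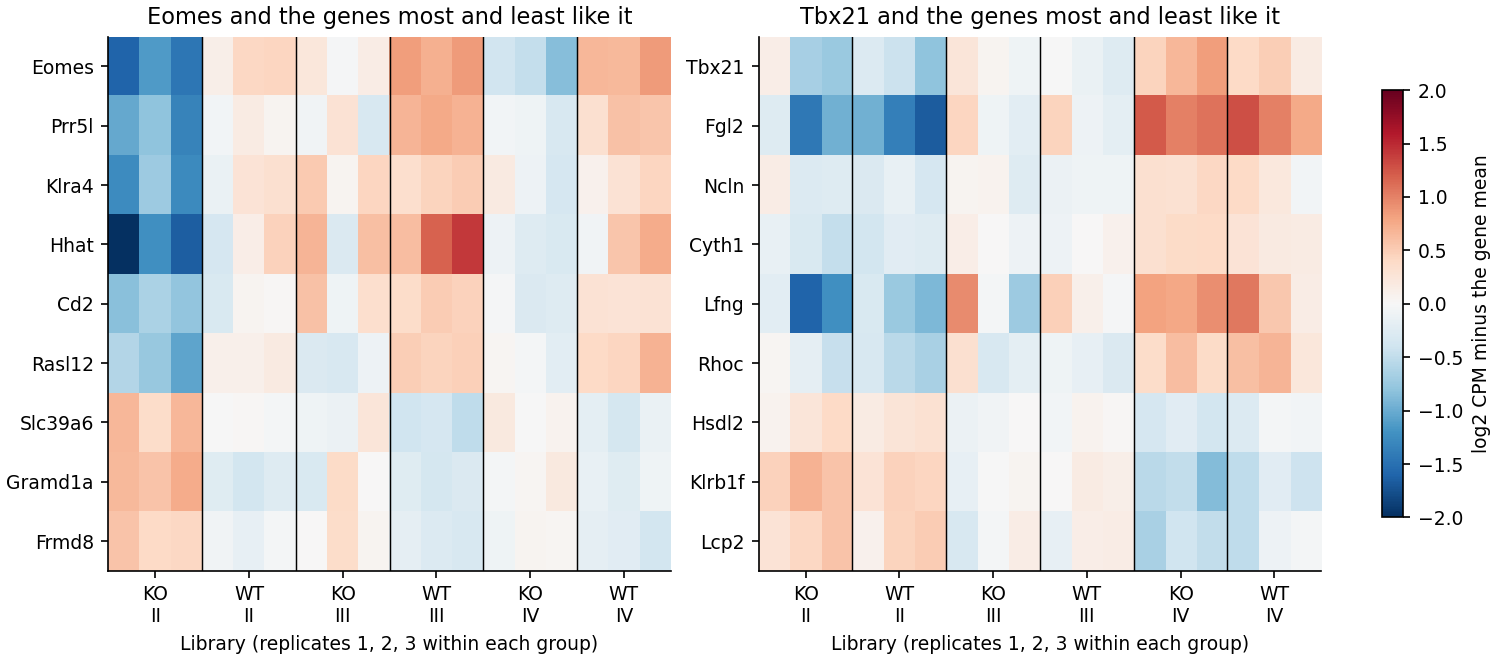
log2 CPM minus each gene's mean in the 18 libraries, for Eomes (left) and Tbx21 (right) with the 5 genes most like each and the 3 most opposite, by genotype and stage. Eomes and the genes like it are lowest in the 3 KO stage II libraries, and Tbx21 and the genes like it are high in stage IV of both genotypes.

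Next to Eomes, the long noncoding RNA Platr11 (ENSMUSG00000098161, chromosome 9, 118404097 to 118406099, minus strand), 72.1 kb away, was higher in KO cells. In stage III it was at 4.92, 2.67 and 3.69 CPM in KO and at 1.11, 0.494 and 0.926 CPM in WT, on 98, 60 and 92 counts in KO and 24, 14 and 25 counts in WT. In stage IV it was at 1.18, 0.676 and 0.859 CPM in KO and at 0.0424, 0.243 and 0.196 CPM in WT, on 22, 17 and 21 counts in KO and 1, 6 and 4 counts in WT. Stages III and IV did not overlap between genotypes, and stage II did, at 1.15, 1.80 and 1.55 CPM in KO and 1.03, 1.36 and 0.964 CPM in WT. The log2 fold change was 2.36 ± 0.47 in stage III (adjusted p = 0.0102), 2.41 ± 0.55 in stage IV (adjusted p = 0.0691), 0.42 ± 0.46 in stage II (adjusted p = 0.947) and 1.73 ± 0.29 over the mean of stages (adjusted p = 0.00119). Against replicate 1 as the sole WT library the mean change was 2.34 ± 0.50 and missed the threshold (adjusted p = 0.111). The stage III call was kept in 25 of 30 other settings.

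On the other side of Eomes, Golga4, 20.2 kb away, was at -0.02, -0.57 and -0.22 in stages II, III and IV (adjusted p = 0.997, 0.0834 and 1). Within 1 Mb on each side of Eomes, 17 genes were tested and 0, 2 and 1 were called in these stages, against 1.46%, 7.9% and 0.509% of all genes, so the numbers are too small to set this region apart. Besides Platr11 this was Azi2, an adaptor of kinases in interferon signalling, 408 kb away and chosen after its values were seen, at -0.74 ± 0.15 in stage III and -0.72 ± 0.15 in stage IV (adjusted p = 0.00966 and 0.0392). Its stage III call was kept in 24 of 30 other settings and its stage IV call in 13. Neither neighbour of Tbx21 was called: Tbkbp1, 20.8 kb away, was at 0.23, 0.54 and 0.31 (adjusted p = 0.98, 0.324 and 1), and the pseudogene Gm11573, 0.745 kb away, was also not called. Within 1 Mb on each side of Tbx21, 46 genes were tested and 1, 5 and 1 were called in stages II, III and IV, near the shares over all genes.

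The gene of that region called at each stage was Arl5c (ENSMUSG00000038352, chromosome 11, 97989578 to 97996181, minus strand), 874 kb from Tbx21 and chosen after its values were seen, which encodes a small GTPase of the ARF-like family. In stage II it was at 16.8, 13.8 and 9.57 CPM in KO and at 72.4, 93.5 and 61.4 CPM in WT. In stage III it was at 45.2, 48.2 and 26.4 CPM in KO and at 131, 121 and 106 CPM in WT, and in stage IV at 12.5, 17.5 and 15.8 CPM in KO and at 66.3, 61.3 and 43.9 CPM in WT. KO lay below WT without overlap at each stage, and WT replicate 1 lay with the other WT libraries. The log2 fold change was -2.51 ± 0.24 in stage II, -1.44 ± 0.22 in stage III and -1.92 ± 0.23 in stage IV (adjusted p = 1.84e-05, 0.00165 and 0.000348). Without replicate 1 of every WT stage it was -2.60, -1.40 and -1.83, and each was called (adjusted p = 0.000207, 0.0142 and 0.00463). With replicate 1 as the sole WT library it was -2.20, -1.53 and -2.11, and none was (adjusted p = 0.0698, 0.302 and 0.0742).

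**Figure D5:**
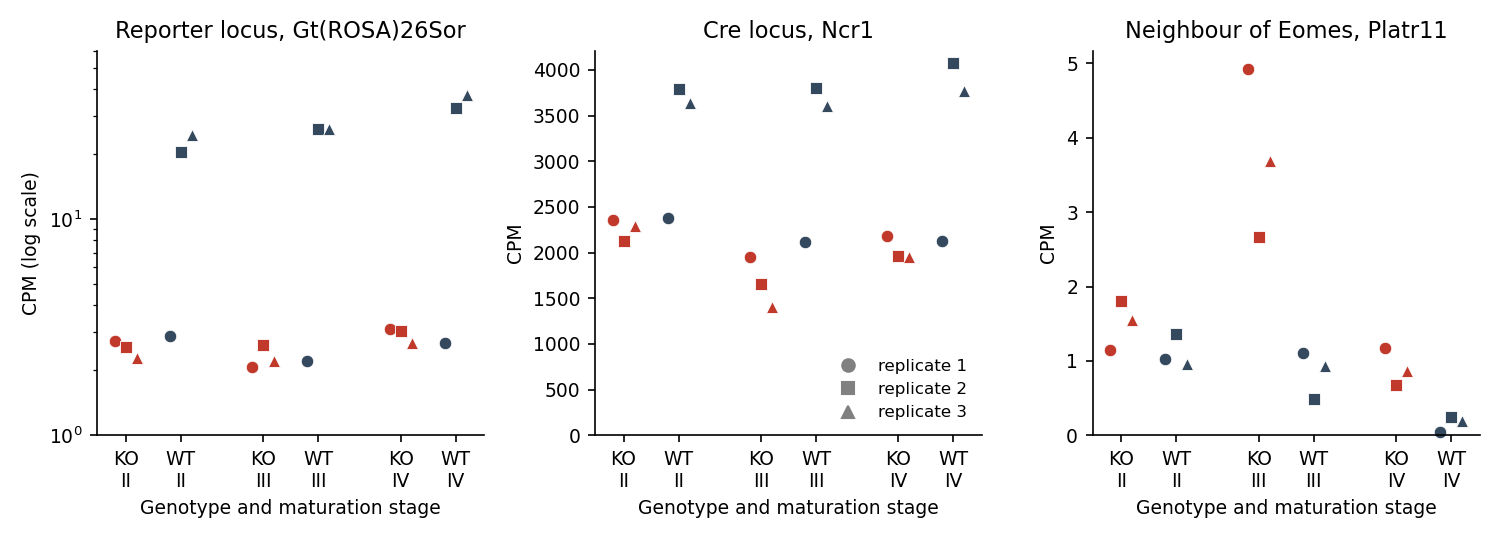
Gt(ROSA)26Sor (left, log scale), Ncr1 (middle) and Platr11 (right) in CPM in each library, by genotype and stage, with a marker for each replicate. Replicate 1 of every WT stage lies with the KO libraries for Gt(ROSA)26Sor (2.21 to 2.89 CPM) and Ncr1 (2111 to 2376 CPM), and with the other WT libraries for Platr11, where KO is higher in stages III and IV.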

How the data were processed

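Per the file headers, each deposited file gives for each Ensembl gene a raw count, a CPM and an RPKM. The authors' deposited CPM and RPKM are the count rescaled by library total and by listed gene length. Per the submitters' processing notes, STAR 2.0.4, Subread and featureCounts 1.4.5 were used; no source used here names the build, the read type or the strand setting. Of the 41388 IDs, 40254 had a symbol in GENCODE M21, and 40158 of these overlapped their position on GRCm38.

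The deposited counts went into edgeR 4.0.16 (R 4.3.3): filter by group (14156 genes kept), trimmed mean of M values, 1 quasi-likelihood fit of 6 group means over all 18 libraries, and Benjamini-Hochberg adjustment over all tested genes, with calls at an adjusted p under 0.05. Standard errors are the absolute log2 fold change over the square root of F. Levels are the CPM and RPKM. Depth was 18684350 to 28365837 counts per library. Duplicate reads from PCR are not marked, and the labels do not tie replicates to mice or experiments, so p-values measure the spread between libraries. Likeness is Pearson's r of log2 CPM (prior count 2). Alternatives were DESeq2 1.42.0, limma 3.58.1 voom with quality weights, other scalings, no filter, and fits without single libraries or sets of them. Others had a replicate block or pool sex (Xist under 1 CPM against the others) as covariate. Only WT replicates 2 and 3 were under 1 CPM, so pool sex cannot be told apart from their split from WT replicate 1.

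Genes named were both members in every library, the other T-box genes, the 5 most like and 3 most opposite each member, the nearest tested gene on each side, and, from the lists, genes called the same way in at least 2 stages, plus single calls where few, chosen after their values were seen. The members, lists and rules were chosen with earlier results of these data known. The fits with WT replicate 1 alone, or without it, and those marked below as added, were chosen after seeing the data. In WT, same-numbered libraries of different stages deviated together (r of 0.131 to 0.485 over genes, all 9 pairs above 0.1), so the numbers were taken to pair WT stages. In KO they paired stages II and III (0.154 to 0.313). With KO stage IV the pairing was mixed: 2 of 6 pairs were above 0.1 (-0.0596 to 0.244), both of replicate 1. Of 9 pairs of KO and WT with the same number, 3 were above 0.1 (-0.0994 to 0.167), and these were not taken to pair. The main fit has no term for this pairing, so its means over the stages treat paired libraries as independent.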

Additional observations from a re-analysis of the deposited data

How the results depend on the processing

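Of 328 fitted values of Eomes and Tbx21 under settings other than leaving out 1 library, 301 kept their side of the threshold, 13 fell below it, 14 passed it and 0 called values changed sign; with 1 library left out, 460 of 468 kept it, 4 fell below and 4 passed. The cause of the changes was not tested; fits of only the groups compared, or without libraries, have fewer degrees of freedom. The fall of Eomes in stage III, KO against WT, was not called with voom quality weights (-0.6577), with only those groups (-0.6874), with pool sex as covariate (-0.6124), without KO stage III replicates 1 and 3 (-0.8428), without replicate 1 of every WT stage (-0.6773) or with it as the sole WT library (-0.7176). That last setting also ended the calls of Eomes in stages II (-1.37) and IV (-1.234), of Tbx21 in WT stage IV over II (0.8137; without those libraries 0.9436) and of Eomes in KO stage IV over III (-0.6876). The Eomes change in KO stage IV over III was also lost with only those groups (-0.6824) and without KO stage III replicates 1 and 3 (-0.5412). Calls gained were the Eomes difference of effect between stages III and II with DESeq2 (1.027) and without a filter (0.9829); Eomes in WT stage III over II with DESeq2 (0.4702), voom (0.3993) and only those groups (0.4806); Eomes in WT stage IV over II with voom (0.319) and only those groups (0.3718); and Tbx21 in WT stage IV over III with voom (0.5363) and only those groups (0.4853). Tbx21 in KO stage IV over III was called with library totals alone (0.7549), DESeq2 (0.5843), no filter (0.5677), a replicate block (0.6027) and, added later, a block within genotype (0.6011); the block changed no other call of Eomes or Tbx21. The ratio of Eomes to Tbx21 over the stages (-1.427) missed the threshold with libraries of the same number kept together, added later, where 0.1 is the smallest p.

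With each library left out in turn, Eomes in stage III, KO against WT, ran from -0.7339 to -0.6216. Its difference of effect ran from 0.9062 to 1.14 between stages III and II and from -0.6953 to -0.4682 between IV and III; both were called without KO stage III replicate 2. Tbx21 in KO ran from 0.2888 to 0.777 for stage III over II and from 0.4806 to 0.665 for IV over III. The mean KO against WT change of Gt(ROSA)26Sor turned positive with pool sex as covariate (0.1044) and with replicate 1 as the sole WT library (0.1488). Pool sex marks only WT replicates 2 and 3, so both settings compare KO with WT replicate 1. An effect of sex cannot be told apart from that split. The count of all genes called between KO and WT moved far more than the values of Eomes and Tbx21: 207 in stage II (2 to 1061 over other settings, 105 to 325 with 1 library left out), 1119 in stage III (0 to 2316, and 144 to 4993) and 72 in stage IV (1 to 358, and 30 to 110). For the mean of stages it was 772 (59 to 1553, and 486 to 3196). With only the groups compared, the mean of stages is the fit of all groups and was not run. Depth limits Platr11 and the scarce T-box genes, which rest on few counts, and not Eomes or Tbx21, with 1310 counts or more in every library.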
